A study of Homo sapiens with 12 samples.

Results

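The desmosome genes examined here are 10 symbols chosen by name: the desmosomal cadherins DSG2, DSG3, DSC2 and DSC3, the plaque genes PKP1, PKP2, PKP3, DSP and JUP, and TRIM29, which encodes no structural part of the desmosome. The list was drawn up with earlier results of these data known, so counts of its members against all genes are descriptive. All 10 were measured, each by 1 transcript cluster of the array, among 14884 genes tested. RNA came from 2 human triple-negative breast cancer lines, HCC70 and MDA-MB-231, on 12 Human Gene 2.0 ST arrays with 3 in each of 4 groups: HCC70 with JQ1, HCC70 with vehicle, MDA-MB-231 with JQ1, and MDA-MB-231 with vehicle. JQ1, a small-molecule inhibitor of BET bromodomain proteins, was given at 500 nM and the vehicle was DMSO at 0.1%, for 72 hours in all groups. Each line is a single model of its tumour type. Whether the 3 samples of a group were grown as separate cultures is not stated in the labels, so the p-values reflect the spread among these samples alone, and that may be technical. No batch is named.

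Desmosomes are spot-like junctions that anchor the keratin filaments of neighbouring epithelial cells to each other. Desmogleins (DSG) and desmocollins (DSC) are calcium-dependent cadherins that meet in the space between the cells. Their tails bind plakoglobin (JUP) and the plakophilins (PKP), armadillo-repeat proteins of the plaque, and desmoplakin (DSP) ties that plaque to keratin. DSG2 and DSC2 are made in most epithelia and in heart muscle, whereas DSG3, DSC3 and PKP1 are best known from stratified epithelia such as skin. TRIM29 is a tripartite-motif protein of basal and squamous epithelial cells.

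JQ1 lowered 5 of the 10 genes in HCC70, namely DSG3, DSC2, DSC3, PKP1 and TRIM29, and raised 0. Over all genes tested 12.5% were called lower, 9.18% higher and 21.7% in either direction in that comparison. DSG3 fell the furthest of these 5, 3.12-fold. DSG2, DSP, JUP, PKP2 and PKP3 did not pass the test in HCC70, with log2 changes between -0.10 and 0.11. In MDA-MB-231 JQ1 raised 1 of the 10, PKP2, 1.43-fold, and lowered 0, where 10.8% of all genes were called higher, 17.0% lower and 27.8% in either direction. There DSG3, DSC2 and DSC3 lay near the array's background, and PKP1 and TRIM29 little above it. This limits any fall that could be measured in these genes. In vehicle all 10 genes were higher in HCC70 than in MDA-MB-231, from 1.37-fold for PKP2 to at least 103-fold for DSC2, against 23.8% of all genes called higher in HCC70, 23.2% lower and 47.0% in either direction.

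The array medians over the genes tested lay between 6.16 and 6.26, and arrays of 1 group correlated at r = 0.989 to 0.995. The lower quartile of gene levels was 4.78 to 4.82 in the 4 groups. A level below it is read as near the array's background, and a difference that ends there as a lower bound. Probe sets differ in brightness, so levels are compared only within a gene. As a check of the lines, 3 of 5 measured epithelial markers were higher and 1 lower in HCC70 vehicle than in MDA-MB-231 vehicle. EPCAM, an epithelial adhesion molecule, averaged 10.31 in HCC70 and 7.41 in MDA-MB-231, but KRT18 averaged 10.41 in HCC70 and 10.68 in MDA-MB-231. All 3 measured mesenchymal markers were lower in HCC70, with VIM (vimentin) at 7.13 in HCC70 and 10.42 in MDA-MB-231. Under JQ1 in HCC70 the inhibitor's usual readouts HEXIM1 and BRD2 rose by 1.11 ± 0.13 and 1.22 ± 0.089 (SE) on the log2 scale, and MYC fell by 0.92 ± 0.10. In MDA-MB-231 HEXIM1 and BRD2 rose by 0.59 ± 0.13 and 0.86 ± 0.089 and MYC fell by 0.41 ± 0.10.

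The promoter windows are shown because neighbouring genes of the desmosomal cadherin cluster behaved differently under JQ1. The RefSeq table for GRCh38.p14 held windows of 300 bases, 250 before and 50 from the transcription start, for 7 of the 10 genes. PKP2, PKP3 and TRIM29 were not among them. Capitals mark CAGGTG or its reverse complement CACCTG, an E-box bound by ZEB and SNAI repressors. Each sequence reads 5′ to 3′ on the strand of its gene. The first 4 lines below are the genes that fell in HCC70 (DSG3, DSC3, DSC2 with its first of 2 windows, and PKP1), and the last 2 are genes that did not pass there (DSG2 and DSP).
DSG3 (chr18:31447491-31447790, plus strand): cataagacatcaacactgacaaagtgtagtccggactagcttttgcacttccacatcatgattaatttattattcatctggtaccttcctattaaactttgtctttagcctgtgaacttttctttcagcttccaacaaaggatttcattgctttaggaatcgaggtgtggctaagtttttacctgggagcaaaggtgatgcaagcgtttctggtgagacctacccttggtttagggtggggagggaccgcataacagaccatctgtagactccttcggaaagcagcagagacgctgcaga
DSC3 (chr18:31042693-31042992, minus strand): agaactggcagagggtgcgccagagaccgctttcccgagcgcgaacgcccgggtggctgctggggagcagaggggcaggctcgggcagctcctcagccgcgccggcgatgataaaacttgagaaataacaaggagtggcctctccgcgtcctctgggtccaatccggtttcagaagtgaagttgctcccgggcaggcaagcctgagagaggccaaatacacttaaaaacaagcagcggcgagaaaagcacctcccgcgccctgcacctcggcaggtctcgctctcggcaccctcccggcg
DSC2 (chr18:31102372-31102671, minus strand): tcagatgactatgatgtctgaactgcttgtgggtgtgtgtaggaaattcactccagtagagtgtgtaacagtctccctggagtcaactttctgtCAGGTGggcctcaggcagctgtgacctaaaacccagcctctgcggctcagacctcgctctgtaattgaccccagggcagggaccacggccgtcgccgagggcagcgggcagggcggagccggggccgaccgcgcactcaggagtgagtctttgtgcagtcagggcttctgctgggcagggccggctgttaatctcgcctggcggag
PKP1 (chr1:201283256-201283555, plus strand): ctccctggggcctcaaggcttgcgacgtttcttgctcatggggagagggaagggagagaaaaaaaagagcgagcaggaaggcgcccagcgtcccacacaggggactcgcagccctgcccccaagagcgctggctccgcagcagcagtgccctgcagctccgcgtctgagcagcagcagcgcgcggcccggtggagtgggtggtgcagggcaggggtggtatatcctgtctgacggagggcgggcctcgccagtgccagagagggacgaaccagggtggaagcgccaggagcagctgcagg
DSG2 (chr18:31497927-31498226, plus strand): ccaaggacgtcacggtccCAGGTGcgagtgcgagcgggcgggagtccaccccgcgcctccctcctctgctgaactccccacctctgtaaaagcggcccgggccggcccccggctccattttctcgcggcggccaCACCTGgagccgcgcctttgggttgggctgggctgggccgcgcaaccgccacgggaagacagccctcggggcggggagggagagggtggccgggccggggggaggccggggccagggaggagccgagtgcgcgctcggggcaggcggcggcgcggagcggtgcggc
DSP (chr6:7541421-7541720, plus strand): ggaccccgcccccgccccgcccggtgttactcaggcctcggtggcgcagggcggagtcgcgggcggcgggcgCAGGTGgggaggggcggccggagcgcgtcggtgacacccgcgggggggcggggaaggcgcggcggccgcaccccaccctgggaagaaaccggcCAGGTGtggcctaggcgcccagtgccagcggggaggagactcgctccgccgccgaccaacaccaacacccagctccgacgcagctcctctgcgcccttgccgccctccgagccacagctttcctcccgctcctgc
The DSG3 window stood apart in base composition, with 44.0% G and C and 6 CpG dinucleotides. DSG2, its neighbour, had 76.7% and 36, and DSP 77.0% and 37. PKP1 had 67.3% and 19, DSC3 63.3% and 25, and the printed DSC2 window 60.7% and 15, while the median of all 35116 windows was 58.7% and 14. The E-box was present in the windows of DSG2 (at -232 and -116 from the start), DSP (-178 and -85), DSC2 (-156 in the printed window) and JUP (-54 and -43 in its second window), and in 20.6% of all windows. The windows of DSG3, DSC3 and PKP1 held no match. Neither did the first window of JUP, a gene that did not pass in HCC70 and is not printed, or the second window of DSC2. Of the other motifs searched on both strands, TGANTCA (AP-1, in 7.71% of all windows), AACNGGTT (grainyhead-like factors, 1.73%), CACGTG (MYC and MAX, 7.26%) and TATAAA (11.5%) had no match in any member's window. A match is only a string of letters in these windows and says nothing of binding.

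The first comparison asked how the level of each gene differed between the lines in vehicle. DSC2, DSC3 and DSG3 showed the widest differences of the 10 genes. DSC2 had log2 signals of 11.35, 11.40 and 11.40 on the HCC70 vehicle arrays, against 4.86, 4.45 and 4.79 on the MDA-MB-231 vehicle arrays. The groups did not overlap, and the MDA-MB-231 mean of 4.70 lay below the lower quartile of genes. The difference was at least 6.68 ± 0.12 (SE, log2). DSC3 had 10.51, 10.41 and 10.34 in HCC70 vehicle, against 4.37, 3.97 and 4.12 in MDA-MB-231 vehicle. This difference, at least 6.26 ± 0.15, also ended near background in MDA-MB-231. DSG3 had 7.97, 8.15 and 8.10 in HCC70 vehicle, against 4.28, 4.07 and 4.34 in MDA-MB-231 vehicle, a difference of at least 3.84 ± 0.14. DSG2 was the exception among the cadherins, since it was well above background in both lines. Its signals were 11.27, 11.18 and 11.25 in HCC70 vehicle, against 9.48, 9.47 and 9.38 in MDA-MB-231 vehicle, which is 3.45-fold (1.79 ± 0.075). The largest adjusted p among the 4 cadherins was 7.1e-10 (limma with Benjamini-Hochberg adjustment over all genes).

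The plaque genes and TRIM29 had MDA-MB-231 vehicle means above the lower quartile, by little for PKP1 (4.94) and TRIM29 (4.94), so the folds of these 2 are also limited by background. PKP1 had 7.94, 7.87 and 8.16 in HCC70 vehicle, against 4.62, 5.12 and 5.09 in MDA-MB-231 vehicle, 8.25-fold (3.04 ± 0.15). JUP, which also sits in adherens junctions, averaged 10.77 ± 0.053 in HCC70 vehicle and 8.85 ± 0.12 in MDA-MB-231 vehicle (SD, n = 3 each), 3.77-fold. DSP averaged 11.84 ± 0.042 and 10.62 ± 0.095 in the same groups, 2.33-fold. PKP3 averaged 7.22 ± 0.015 and 6.41 ± 0.034, 1.75-fold. PKP2 differed least, with 8.87 ± 0.044 in HCC70 vehicle and 8.42 ± 0.12 in MDA-MB-231 vehicle. TRIM29 had 6.98, 7.16 and 6.72 in HCC70 vehicle, against 5.07, 4.82 and 4.93 in MDA-MB-231 vehicle, 4.03-fold (2.01 ± 0.12). The largest adjusted p of these genes was 0.00081 by limma, for PKP3. The median difference over the 10 genes was 1.96, and over all genes tested it was 0.03.

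**Figure D1:**
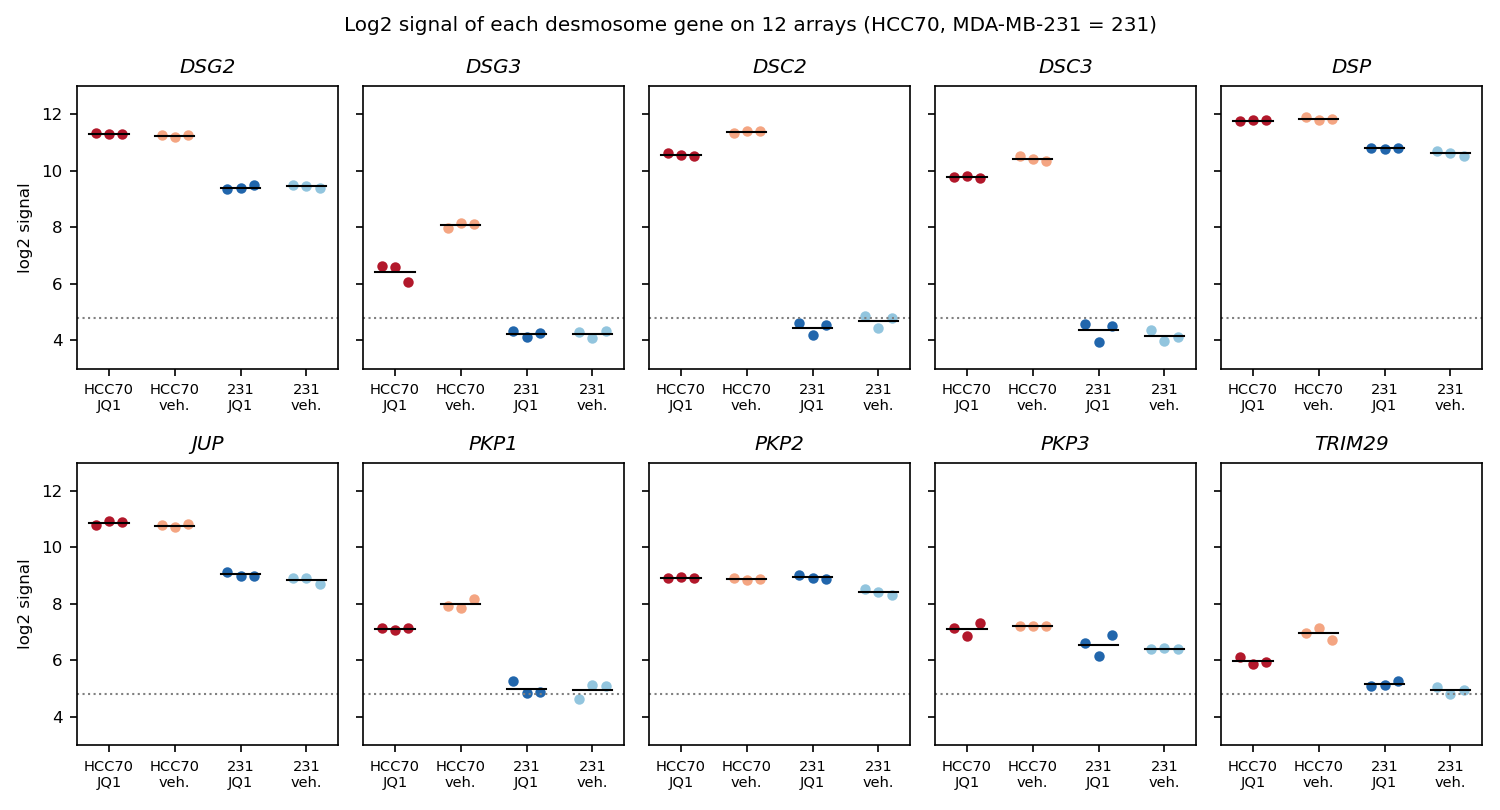
Log2 signal of the 10 genes on all 12 arrays (vertical axis), by group (horizontal axis; MDA-MB-231 is shortened to its number and vehicle to veh.), with 1 point per array, a bar at the group mean and a dotted line at the lower quartile of all genes, averaged over the groups. The MDA-MB-231 means of DSG3, DSC2 and DSC3 sit below that line, with 1 DSC2 vehicle array just above it, and all their HCC70 arrays lie above it, where they and PKP1 and TRIM29 are lower with JQ1 than with vehicle.

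The next comparison asked what JQ1 did to these genes in HCC70. DSG3, the desmoglein of basal epidermis that is the target of autoantibodies in pemphigus vulgaris, had 6.63, 6.60 and 6.05 with JQ1, against 7.97, 8.15 and 8.10 with vehicle. Every JQ1 array was below every vehicle array, with JQ1 replicate 3 the lowest. The log2 change was -1.64 ± 0.14 (limma adjusted p = 4.6e-06), the 94th largest in size of all genes, and it was -1.45 without JQ1 replicate 3. DSC2 had 10.62, 10.57 and 10.51 with JQ1, against 11.35, 11.40 and 11.40 with vehicle. It fell 1.76-fold (-0.82 ± 0.12, limma adjusted p = 0.00038). DSC3 had 9.78, 9.83 and 9.75 with JQ1, against 10.51, 10.41 and 10.34 with vehicle, a 1.55-fold fall (-0.63 ± 0.15, limma adjusted p = 0.0096). DSG2 gave 11.32, 11.31 and 11.30 with JQ1, against 11.27, 11.18 and 11.25 with vehicle. These groups did not overlap, but the difference of 0.08 did not pass (95% interval -0.09 to 0.24). The number of all genes whose groups separated was not counted.

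Of the plaque genes in HCC70 only PKP1 passed the test. It had 7.16, 7.06 and 7.14 with JQ1, against 7.94, 7.87 and 8.16 with vehicle, a 1.83-fold fall (-0.87 ± 0.15, limma adjusted p = 0.00082). PKP2 (0.05, 95% interval -0.13 to 0.23), DSP (-0.07, -0.23 to 0.10) and JUP (0.11, -0.08 to 0.30) did not pass, and their intervals leave out a change of the size of that in PKP1. The DSP groups did not overlap, with JQ1 the lower. PKP3 did not pass either (-0.10), with a wider interval of -0.45 to 0.24, and its JQ1 arrays were at 7.16, 6.87 and 7.30. TRIM29 had 6.11, 5.86 and 5.95 with JQ1, against 6.98, 7.16 and 6.72 with vehicle, and fell 1.97-fold (-0.98 ± 0.12, limma adjusted p = 7.1e-05). The 5 genes that fell were called lower in all 6 fits that left out 1 HCC70 array. The median change of the 10 genes was -0.37, against 0.01 over all genes.

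Other measured features of the HCC70 cells moved under JQ1 in the same arrays. Over the 5 measured epithelial markers of 7 listed, the mean log2 signal was 9.36 to 9.48 on JQ1 arrays and 8.97 to 9.12 on vehicle arrays. Among them the keratins KRT18 and KRT8 rose by 0.85 and 0.45, while EPCAM (0.26), CLDN4 (0.28) and CLDN7 (0.01) did not pass. For the 3 measured mesenchymal markers of 6 the mean was 5.05 to 5.47 on JQ1 arrays and 6.86 to 6.98 on vehicle arrays. FN1 (-3.1) and VIM (-1.7) fell, and ZEB1, a repressor of epithelial genes, was below the lower quartile in both groups. For the 3 measured blood markers of 8 the mean was 6.58 to 6.82 on JQ1 arrays and 6.77 to 6.86 on vehicle arrays, with CD14 lower by 0.38 on the log2 scale under JQ1. Of the 4 stromal and endothelial markers measured of 9, 3 lay below the lower quartile in every group. The part of these markers in the fall of the desmosome genes was not tested. In RNA from whole cultures, fewer cells that make a transcript and less of it per cell cannot be told apart.

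**Figure D2:**
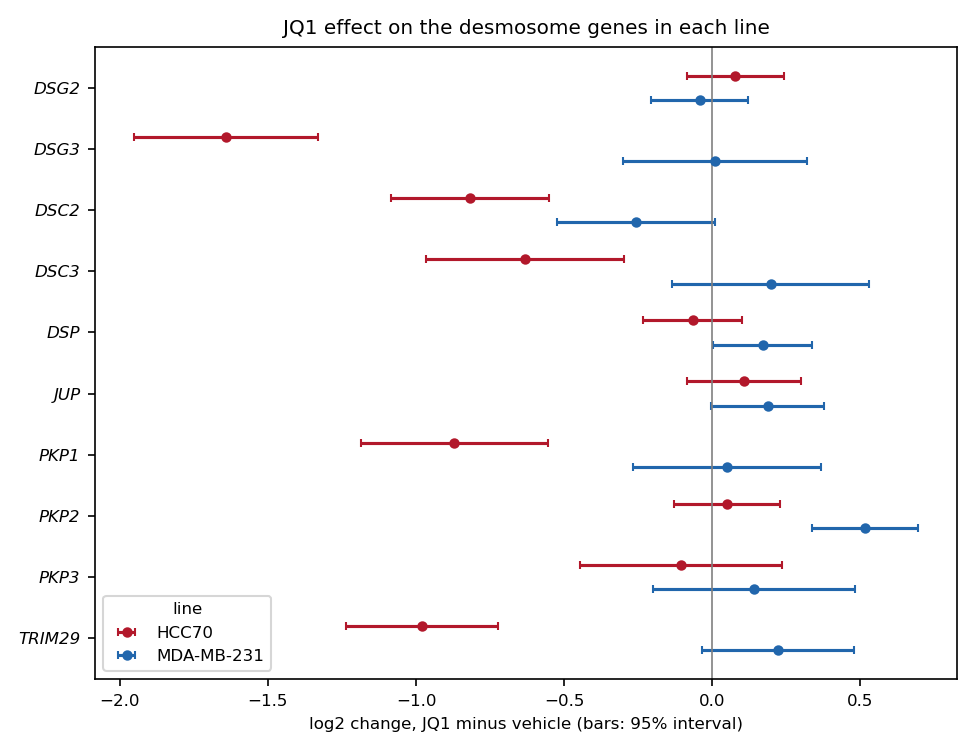
Log2 change with JQ1 relative to vehicle (horizontal axis) for each gene (vertical axis) in HCC70 (upper point of each pair) and MDA-MB-231 (lower point), with 95% intervals from the limma fit. In HCC70 the intervals of DSG3, DSC2, DSC3, PKP1 and TRIM29 lie below 0, and in MDA-MB-231 that of PKP2 lies furthest above 0.

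In MDA-MB-231 PKP2 was the only member that passed the test for JQ1. PKP2, the plakophilin that is also the main one of heart muscle, had 9.01, 8.91 and 8.88 with JQ1, against 8.53, 8.42 and 8.30 with vehicle. The groups did not overlap, and the rise was 0.52 ± 0.083 on the log2 scale (limma adjusted p = 0.00043). DSP (0.17 ± 0.077, limma adjusted p = 0.13) and JUP (0.19 ± 0.088, adjusted p = 0.14) were higher with JQ1 by amounts that did not pass. For both, as for TRIM29, every JQ1 array was above every vehicle array. How many of all genes separated in this way was not counted. DSP and JUP passed after median centring (limma adjusted p = 0.033 and 0.044) and with a variance trend and robust moderation (0.0054 and 0.032). DSP also passed among genes above the median level (0.049), and JUP after quantile normalization (0.31 on the log2 scale, limma adjusted p = 0.0076). DSG2 (-0.04, 95% interval -0.21 to 0.12), PKP3 (0.14, -0.20 to 0.48), PKP1 (0.05, -0.27 to 0.37) and TRIM29 (0.22, -0.03 to 0.48) did not pass. The sign of the DSG2 value turned under centring and quantile normalization. DSG3, DSC2 and DSC3 lay below the lower quartile in both MDA-MB-231 groups, so a fall could hardly be measured there. PKP1 and TRIM29 lay little above it, which also limits a fall. DSC2 had 4.60, 4.20 and 4.53 with JQ1, against 4.86, 4.45 and 4.79 with vehicle. This difference of -0.26 did not pass (limma adjusted p = 0.15) but passed with the replicate number as a block (adjusted p = 0.040). The median change of the 10 genes was 0.16, against 0.02 over all genes. On the same arrays the mean log2 signal of the 5 measured epithelial markers was 7.21 to 7.28 with JQ1 and 7.66 to 7.77 with vehicle. Of these, 3 fell, EPCAM the furthest by 1.74 ± 0.12, and 2 rose, KRT18 by 0.59 ± 0.091 and KRT8 by 0.37 ± 0.11. The mean of the mesenchymal markers was 9.25 to 9.43 with JQ1 and 9.80 to 9.98 with vehicle. Among them FN1 (fibronectin) fell by 1.40 ± 0.091, while VIM (0.15) and ZEB1 (-0.41) did not pass. The part of these markers in the results for MDA-MB-231, or in the comparison of JQ1 effects between lines, was not tested.

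Scaling moved the direction of calls over all genes, though not the falls in HCC70. Of the genes called for JQ1, 57.7% were lower in HCC70 and 61.2% in MDA-MB-231 on the values as deposited. After centring each array on its median these shares were 43.9% and 48.9%. All 5 falls in HCC70 were called under centring and under quantile normalization.

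The JQ1 effect itself was then compared between the lines. It was more negative in HCC70 than in MDA-MB-231 for 6 of the 10 genes and more positive for 0, where 5.95% of all genes were called more negative, 9.02% more positive and 15.0% in either direction. DSG3 had an effect of -1.64 in HCC70 and 0.01 in MDA-MB-231, a difference of -1.65 ± 0.20 (limma adjusted p = 0.00013). TRIM29 had -0.98 and 0.22, a difference of -1.20 ± 0.17 (limma adjusted p = 0.00036). For PKP1 the difference was -0.92 ± 0.21 (adjusted p = 0.0092 by limma) and for PKP2, from its rise in MDA-MB-231, -0.46 ± 0.12 (adjusted p = 0.017). DSC3 differed by -0.83 ± 0.22 (adjusted p = 0.021) and DSC2 by -0.56 ± 0.17 (adjusted p = 0.048). For DSG3, DSC3 and DSC2 the MDA-MB-231 level was near background, which limits any fall there and enters the difference. The MDA-MB-231 levels of PKP1 and TRIM29 were little above it. The DSC2 call ended after median centring (adjusted p = 0.051), without the 3 arrays farthest from their group means (0.14) and in 9 of the 12 fits that left out 1 array (0.071 to 0.11). The DSC3 call ended when HCC70 vehicle replicate 1 (adjusted p = 0.055), MDA-MB-231 JQ1 replicate 3 (0.052) or the second MDA-MB-231 vehicle array (0.056) was left out, and without the 3 arrays farthest from their group means (0.13). DSP (-0.24, adjusted p = 0.19), PKP3 (-0.25, adjusted p = 0.54), JUP (-0.08, adjusted p = 0.75) and DSG2 (0.12, adjusted p = 0.54) did not pass by limma. DSP passed with a variance trend and robust moderation (adjusted p = 0.010) and after quantile normalization (-0.35, adjusted p = 0.038).

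Under JQ1 the lines still differed in 9 of the 10 genes, all higher in HCC70, where 24.5% of all genes were called higher, 21.8% lower and 46.3% in either direction. DSC2 remained at least 69.8-fold higher in HCC70 and DSC3 at least 43.2-fold. DSG3 averaged 6.43 ± 0.33 in HCC70 with JQ1 and 4.24 ± 0.10 in MDA-MB-231 with JQ1 (SD, n = 3 each), at least 4.57-fold higher in HCC70. PKP1 was 4.36-fold higher, DSG2 3.75-fold, JUP 3.57-fold, DSP 1.98-fold, TRIM29 1.75-fold and PKP3 1.47-fold. With MDA-MB-231 JQ1 means of 4.99 for PKP1 and 5.16 for TRIM29, their folds are again limited by background. The PKP3 arrays of the lines overlapped. PKP2 was the gene that no longer differed beyond its spread, with 8.92, 8.95 and 8.91 in HCC70 and 9.01, 8.91 and 8.88 in MDA-MB-231 (difference -0.01, 95% interval -0.19 to 0.17). After quantile normalization it was lower in HCC70 by a called amount (-0.22, limma adjusted p = 0.019). These comparisons share their arrays with those above.

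**Figure D3:**
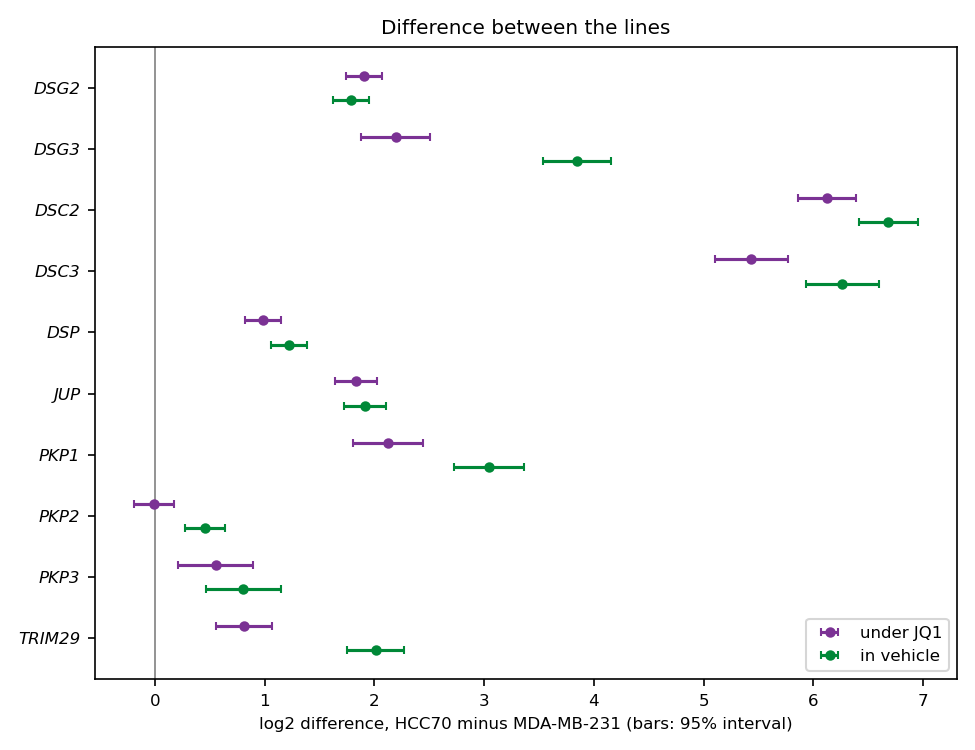
Log2 difference between HCC70 and MDA-MB-231 (horizontal axis) for each gene (vertical axis) under JQ1 (upper point) and in vehicle (lower point), with 95% intervals from the limma fit. The differences of DSC2 and DSC3 are lower bounds of 5.43 to 6.68 over both treatments, and PKP2 differs by 0.46 in vehicle and -0.01 under JQ1.

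The order of the 4 groups took 3 forms. For DSG3, DSC2, DSC3, PKP1 and TRIM29 the order from high to low was HCC70 vehicle, HCC70 JQ1 and then both MDA-MB-231 groups, which did not differ by the test. For DSG2, JUP, DSP and PKP3 both HCC70 groups were above both MDA-MB-231 groups on average, and the JQ1 change did not pass in either line. For PKP2 the vehicle-treated MDA-MB-231 cells were lowest, and the HCC70 JQ1 group passed no test against HCC70 vehicle or MDA-MB-231 JQ1 on the values as deposited.

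The cadherin genes lie next to each other on chromosome 18 in the order DSC3, DSC2, DSC1, DSG1, DSG4, DSG3 and DSG2, with no other protein-coding gene between them in RefSeq. All 7 were measured. In HCC70 DSC3 and DSC2 at one end and DSG3 near the other fell under JQ1, while DSG2, next to DSG3, did not pass. DSC1, DSG1 and DSG4, cadherins of the upper skin layers and hair, lay below the lower quartile in all 4 groups. DSC1 averaged 4.07 in HCC70 with JQ1 and 4.33 with vehicle, DSG4 4.20 and 4.10, and DSG1 3.10 and 3.07, and 0 of these 3 passed the test.

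Among further genes of the desmosome, 7 of 8 listed were measured. Of these, PPL rose in both lines under JQ1 and the other 6 did not pass in either. PPL encodes periplakin, a cytolinker of the cornified envelope and of desmosomes. It rose by 0.51 ± 0.10 in HCC70 (limma adjusted p = 0.0032) and by 0.67 ± 0.10 in MDA-MB-231 (adjusted p = 0.00031). PKP4, a p120-catenin relative, averaged 9.32 in HCC70 with JQ1 and 9.49 with vehicle, and its change of -0.17 did not pass (limma adjusted p = 0.16). The median change of the 7 genes was 0.03 in HCC70 and 0.02 in MDA-MB-231.

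Genes of other junctions, keratins and regulators are counted below against the same shares of all genes, 9.18% called higher and 12.5% lower in HCC70 and 10.8% higher and 17.0% lower in MDA-MB-231. Of 13 measured tight junction genes, 1 rose and 1 fell in HCC70 with JQ1. The polarity proteins PARD6B and PARD3 changed by 0.59 ± 0.10 and -0.24 ± 0.078 on the log2 scale. The transmembrane proteins CLDN7 (0.01) and OCLN (0.19) did not pass in HCC70. In MDA-MB-231 2 of the 13 rose, led by PARD6B (0.92 ± 0.10) and TJP1 (0.46 ± 0.085), and 3 fell, CLDN7 by 1.04 ± 0.19, CLDN1 by at least 0.90 ± 0.20 and CLDN4 by 0.45 ± 0.14. Of 5 measured adherens junction genes of 12 listed, the actin linker VCL (vinculin) rose in HCC70, by 0.46 ± 0.074, and 0 fell. In MDA-MB-231 NECTIN2 fell by 0.41 ± 0.098 and NECTIN1, near background in vehicle, rose by at least 0.47 ± 0.15. CDH1, CTNNB1 and CTNND1 were not analysed here. Of 3 measured hemidesmosome genes, which anchor cells to the basement membrane, PLEC (plectin) rose in HCC70 by 0.48 ± 0.086 and in MDA-MB-231 by 0.60 ± 0.086, and the tetraspanin CD151 rose in MDA-MB-231 by 0.30 ± 0.085. The 7 gap junction genes listed were not analysed here.

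Keratins, the filaments that desmosomes anchor, went both ways. Of 10 measured in HCC70, 4 rose and 2 fell with JQ1. KRT80 and KRT18 rose by 0.87 ± 0.085 and 0.85 ± 0.091, and KRT8 and KRT19 by 0.45 ± 0.11 and 0.31 ± 0.078. KRT23 fell by 1.69 ± 0.23, and KRT14, a keratin of basal cells, by 1.03 ± 0.23, while KRT5 (-0.11 ± 0.39, limma adjusted p = 0.90) did not pass. In MDA-MB-231 4 of 10 rose and 0 fell, with KRT7 up by 1.37 ± 0.093, KRT18 by 0.59 ± 0.091, KRT19 by 0.41 ± 0.078 and KRT8 by 0.37 ± 0.11. KRT14 lay below the lower quartile in MDA-MB-231.

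Proteases and kinases that act on desmosomal proteins, and transcription factors, came next. Of 9 measured proteases and kinases 2 rose in HCC70, ADAM9 by 0.45 ± 0.089 and KLK7 by 0.54 ± 0.15, and the kinase SRC fell by 0.62 ± 0.12. In MDA-MB-231 ADAM17 was the only one of the 9 to pass and fell by 0.39 ± 0.081. With the replicate block 1 of the 9 also rose there. The list of epithelial transcription factors, 11 of them measured, also holds the splicing regulators ESRP1 and ESRP2. Of the 11, 1 rose in HCC70, TFAP2C by 0.56 ± 0.093, and 2 fell, EHF by 1.09 ± 0.084 and GRHL3 by 0.81 ± 0.18. GRHL2, a grainyhead-like activator of junction genes, averaged 9.76 in HCC70 with JQ1 and 9.91 with vehicle and did not pass (-0.15 ± 0.10, limma adjusted p = 0.39). In MDA-MB-231 KLF5 rose by 0.60 ± 0.10, and TFAP2C and the splicing regulator ESRP2 fell by 1.03 ± 0.093 and 0.70 ± 0.11. TP63 was not analysed here. Among 7 mesenchymal transition factors SNAI2 fell in HCC70, by 0.78 ± 0.076, and ZEB2 in MDA-MB-231, by 0.74 ± 0.12. ZEB1 did not pass in MDA-MB-231 (-0.41 ± 0.17, limma adjusted p = 0.097), but did without vehicle replicate 3 (-0.53, adjusted p = 0.047).

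**Figure D4:**
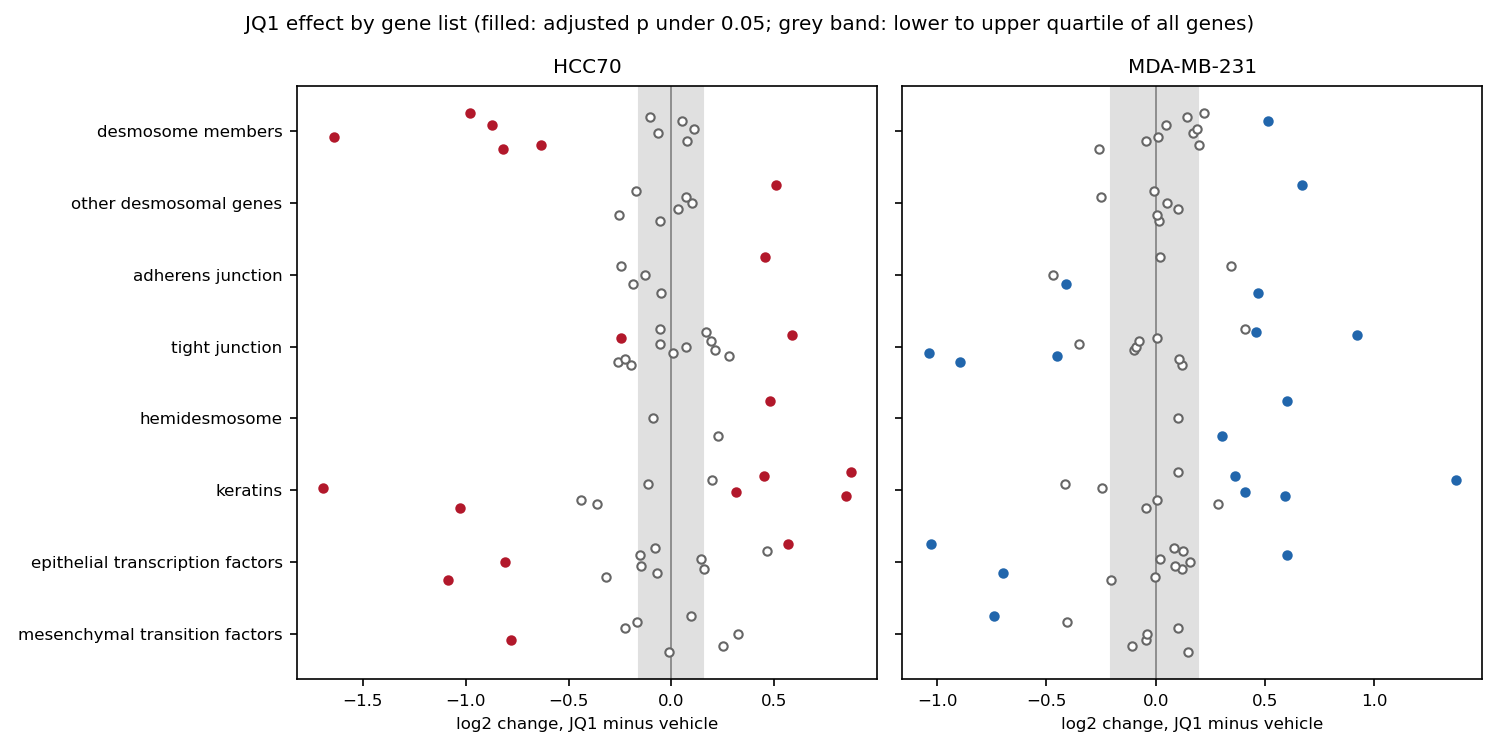
Log2 change with JQ1 relative to vehicle (horizontal axis) in HCC70 (left, red) and MDA-MB-231 (right, blue) for each measured gene of 8 lists (vertical axis), filled where the adjusted p was under 0.05 and open otherwise, with a grey band between the lower and upper quartiles of all genes. The 5 filled points of the desmosome genes in HCC70 all lie left of the band, between -1.64 and -0.63.

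Between the lines in vehicle, the other lists differed in direction, where 23.8% of all genes were higher and 23.2% lower in HCC70. Of 13 tight junction genes 12 were higher in HCC70 and 1 was lower, with CLDN1 at 4.55 ± 0.20 and OCLN at 3.17 ± 0.13 above MDA-MB-231 on the log2 scale. Of 11 genes listed as epithelial transcription factors 10 were higher, the splicing regulator ESRP1 by at least 6.52 ± 0.11 and GRHL2 by at least 5.18 ± 0.10. Of 10 keratins 7 were higher and 2 lower, and KRT5 was higher by at least 3.86 ± 0.39. Of the 7 further desmosomal genes 2 were higher, PPL by 1.96 ± 0.10 and DSC1 by 0.31 ± 0.10, within levels near background. All 3 hemidesmosome genes measured were lower in HCC70, PLEC by 0.56 ± 0.086. Of 5 adherens junction genes 2 were higher, NECTIN4 by 2.66 ± 0.15 and NECTIN1 by at least 1.53 ± 0.15, and 3 were lower, namely NECTIN3 (-2.21 ± 0.24), VCL (-1.19 ± 0.074) and NECTIN2 (-0.56 ± 0.098). Of 7 mesenchymal transition factors 3 were lower in HCC70, ZEB1 by at least 3.27 ± 0.17, SNAI2 by 2.33 ± 0.076 and ZEB2 by at least 1.08 ± 0.12. SNAI1 (0.60 ± 0.12) and, near background, TWIST2 (0.38 ± 0.15) were higher, and the median of the 7 was -0.06. Of 9 proteases and kinases 3 were higher and 3 lower.

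The genes whose pattern over the 12 arrays was most like that of the 3 members with the widest range were found by the root mean square distance of the log2 signals, each gene's own mean subtracted. These distances share the 12 arrays. The signals were not scaled to equal spread, so the size of the difference between the lines weighs heavily in them. DSC2 was nearest to ESRP1 (distance 0.27), MGP (0.32), DSC3 (0.34), HOOK1 (0.44) and VTCN1 (0.44), so the other desmocollin came in 3rd place among all genes. DSC3 was nearest to MGP (0.22), HOOK1 (0.26), CD109 (0.30), HORMAD1 (0.32) and PTGFRN (0.34), with DSC2 in 7th place. DSG3 was nearest to PLXDC2 (0.18), MACC1 (0.19), UNC5C (0.25), VGLL1 (0.27) and GLYATL1-AS1 (0.27), and its nearest fellow member, PKP1, was in 30th place. PLXDC2 averaged 7.34 in HCC70 with JQ1 and 8.65 with vehicle, and MACC1 averaged 6.60 and 7.90.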

How the data were processed

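Per the labels' protocols, 150 ng of RNA per sample was labelled with biotin and hybridised to Human Gene 2.0 ST arrays. The deposited values are log2 signals per transcript cluster, which the authors made; the submitters' processing notes list RMA, oligo and limma but no versions. The genome build of the arrays is not stated in these sources. Of 53617 transcript clusters, 16098 had 1 gene symbol and 0 had several, and the 37519 with none listed were not used. For 779 genes with more than 1 cluster the brightest on average was kept, which left 14884 genes. No dim gene was removed. Columns of other series numbered 0.

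A limma model (3.58.1, lmFit and eBayes, under R 4.3.3) with 1 mean per group used the 12 arrays together. Tests were two-sided, with Benjamini-Hochberg adjustment over all genes and a threshold of 0.05. SE is that of the moderated fit and SD that of 3 arrays. The fit was tested on simulated data. The members and lists were chosen with earlier results of these data known. All 10 members are named. Of other lists, up to 3 called genes with the smallest p in a comparison were named, with CDH1, CTNNB1, CTNND1, ZEB1, GRHL2, TP63, HEXIM1, BRD2 and MYC; genes named beside these were chosen after their values were seen. Neighbours in pattern were the 5 nearest genes of the 3 members with the widest range. Promoter windows were searched in Python 3.11.15.

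Replicate numbers were checked as pairs by correlating, over genes, how far a JQ1 and a vehicle array each lay from the mean of their group. For MDA-MB-231, same-numbered arrays gave 0.155, 0.121 and 0.362, and differently numbered arrays gave -0.250 to 0.121. The numbers were taken as pairs there from the data, though the second pair stood no higher than the top unmatched one. The main tests did not use the pairs, which entered only through the replicate block. Alternatives were the replicate block, each line or treatment alone, robust moderation with a variance trend, only genes brighter than the median, averaging the clusters of a gene, quantile normalization, median centring, array weights, a log2 difference of at least 1, and 12 fits without 1 array each. Leaving out the 3 arrays farthest from their group means (MDA-MB-231 JQ1, MDA-MB-231 vehicle and HCC70 JQ1, each replicate 3) was added after seeing the data. The number of arrays limits the precision.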

Additional observations from a re-analysis of the deposited data

Results flagged for a closer look

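The JQ1 effect of 6 of the 10 listed genes differed between the lines by the interaction term of the limma fit. Over all genes 5.95% were called more negative in HCC70, 9.02% more positive and 15.0% in either direction. Each value is the HCC70 effect minus the MDA-MB-231 effect on the log2 scale. The values were -1.65 for DSG3, -1.20 for TRIM29, -0.92 for PKP1, -0.83 for DSC3, -0.56 for DSC2 and -0.46 for PKP2. Those of TRIM29 and PKP1 rest on MDA-MB-231 levels just above the lower quartile of genes, and those of DSG3, DSC3 and DSC2 on MDA-MB-231 levels below it. The DSC2 and DSC3 calls ended in some of the fits that left out 1 array, and the DSC2 call also ended after median centring. For PKP2, measured well above background in both lines, the arrays read 8.92, 8.95 and 8.91 in HCC70 with JQ1 and 8.91, 8.83 and 8.89 in HCC70 with vehicle, against 9.01, 8.91 and 8.88 in MDA-MB-231 with JQ1 and 8.53, 8.42 and 8.30 in MDA-MB-231 with vehicle.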

How the results depend on the processing

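In HCC70 the 5 members called with JQ1 stayed 5 in every fit that left out 1 array; 3 of 8 measured were called among genes above the median level, which leaves out DSG3 and TRIM29, and 1 (DSG3) at a log2 difference of at least 1. In MDA-MB-231 the count of 1 became 2 with the replicate block, 2 among genes above the median level and with quantile normalization, 3 with centring and with a variance trend, 0 at a log2 difference of at least 1, and 1 to 2 without 1 array. The 2 were PKP2 and DSC2 without MDA-MB-231 vehicle replicate 2, and PKP2 and DSC3 without MDA-MB-231 JQ1 replicate 2. Over all genes in MDA-MB-231, 2270 were called higher with quantile normalization and 2185 with centring, against 1607 on the values as deposited. In either direction these were 4418, 4276 and 4139 genes. Calls over all genes with the block, a variance trend or only genes above the median level are not given here. The count of 6 differing JQ1 effects became 2 at a log2 difference of at least 1 and 4 to 6 without 1 array. The counts between lines were 10 in vehicle and 9 under JQ1 without any 1 array, and 8 and 6 at a log2 difference of at least 1. Over all genes, calls with JQ1 were 648 (MDA-MB-231) and 380 (HCC70) at that difference, against 4139 and 3229, and 5110 in HCC70 with array weights. The differing effects were then 607 against 2228, and line differences 2204 against 7000 in vehicle and 2285 against 6894 under JQ1.

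Signs turned only for values that were not called. In MDA-MB-231 with JQ1 these were DSG2 (0.068 with quantile normalization, 0.023 with centring), DSG3 (-0.031 with quantile normalization, -0.071 to 0.065 without 1 array), PKP1 (-0.11 to 0.14 without 1 array) and PKP3 (-0.031 to 0.34 without 1 array, -0.036 without the 3 arrays farthest from their group means). In HCC70 with JQ1 they were PKP3 (-0.201 to 0.0165 without 1 array) and DSP (0.0032 with centring). The difference of effects turned for DSG2 (-0.057 with quantile normalization), and the PKP2 difference under JQ1 turned with array weights (0.0067) and without 1 array (-0.0365 to 0.0315). In HCC70 same-numbered arrays correlated at -0.059, 0.015 and 0.070, and differently numbered arrays at -0.142 to 0.135. The numbers there were not read as pairs, though so few arrays cannot show that no pairing exists. The replicate block changed no member's call in HCC70, between lines or in the difference of effects. With it, 0 tight junction genes fell in HCC70, in place of PARD3, and 2 genes listed as epithelial transcription factors rose in place of 1. The causes were not tested. Genes near the array background limit what a fall in MDA-MB-231 could show.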
